A study of Homo sapiens with 2 samples.

Results

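Cytochrome P450 (CYP) genes code for enzymes that use a heme iron to insert an oxygen atom into a substrate. The family was taken as every gene probe whose gene name in the array files starts with CYP followed by a digit, whatever its measured value. The rule gave 54 of the 30238 gene names on the array, carried by 79 of its 41000 gene probes. Of these genes, 35 had 1 probe and 19 had several. The name was also a RefSeq gene symbol for 53 of the 54, the exception being CYP2B7P1, and 74 of the 79 probes could be traced to a RefSeq gene through their transcript record, in each case a gene of the same symbol.

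The cells were A2780, a human ovarian cancer line, selected for survival in chemotherapy drugs. A2780CBN was selected in carboplatin up to 22.2 µM, and A2780CBNDXL in carboplatin and docetaxel together, for which the sample labels give 8.02 µM of the combination. The label's value is the half-inhibitory concentration of carboplatin for that line in the study's text, which differs from the terminal dose given there. Each was set against a co-cultured control named A2780CC, and the study's methods describe such a control for each resistant line. For each line a pool of 3 RNA isolations made up 1 sample, measured on 4 arrays that each took resistant and control RNA in different dyes. The spread between arrays is thus array and dye error only and not a difference between cultures. Arrays 1 and 3 of each line were labelled forward and arrays 2 and 4 in reverse, and each of the 2 slides held arrays of both lines, arrays 1 and 2 on slide 1 and arrays 3 and 4 on slide 2. A printed SD takes both labellings together, so it holds any dye effect, which the mean balances.

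As background, CYP enzymes sit mostly in the membrane of the endoplasmic reticulum, where they take electrons from the reductase POR, while a smaller group sits in mitochondria and takes them from ferredoxin. Families CYP1 to CYP3 oxidize many drugs and other foreign compounds and are most abundant in liver, and other families make or break down fatty acid mediators, steroid hormones, sterols, bile acids, vitamin D and retinoic acid. In drug-resistant tumour cells the family is of interest because CYP3A4 is the main enzyme that oxidizes docetaxel and CYP1B1 is found in many tumours, whereas carboplatin, a platinum compound, leaves the body mainly unchanged through the kidney.

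A gene was called detected in a line when its brightest probe was well above background, by the mark in the array files, in the same channel on all 4 arrays. Between 59.8% and 67.5% of the probes were well above background in a channel of an array. By this rule 6 of 11 markers of ovarian carcinoma were detected in A2780CBN and 5 in A2780CBNDXL. PAX8, EPCAM, KRT8, KRT18 and VIM were detected in both lines, whereas the brightest probes of WT1, KRT7, CDH1, MUC16 and MSLN were not above background on any array. EPCAM had a log2 ratio of resistant line to control of 2.07 in A2780CBN and 1.67 in A2780CBNDXL. In the same order KRT18 had 1.05 and 0.51, VIM 1.08 and 0.30, PAX8 0.21 and 0.33 and KRT8 -0.37 and 0.18. KRT19 was detected in A2780CBN only, with a ratio of -0.48 that was below 0 on all 4 arrays. Of 7 liver markers, listed because liver holds so many CYP enzymes, 0 were detected in A2780CBN and 1, SERPINA1, in A2780CBNDXL, and the brightest probe of albumin was not above background on any array. PTPRC, which marks leukocytes, was likewise not above background, while CD14 and CD3E were detected in both lines. All 4 stromal markers were detected in both lines. Their ratios were 0.99 and 2.04 for COL1A1 (A2780CBN and A2780CBNDXL), -5.67 and -2.81 for COL1A2 and 2.21 and 3.62 for DCN. The -5.67 of COL1A2 rests on a resistant channel well above background on 1 of 4 arrays. LUM was at least 2.21-fold higher in A2780CBN and had a ratio of 2.51 in A2780CBNDXL. A bound of this kind is given where a channel of a line was well above background on 0 of 4 arrays, and sets that channel at the lowest scaled signal marked well above background on each array, or at its own signal where that is higher. The part of the cells behind these markers in the CYP ratios was not tested. In cultures measured in bulk, fewer cells with a transcript and less of the transcript per cell cannot be told apart.

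The detected share of the family was lower than that of all genes in both lines. In A2780CBN 21 of the 54 CYP genes were detected, 38.9%, against 17949 of 30238 genes, 59.4%. In A2780CBNDXL 24 CYP genes were detected, 44.4%, against 17105 genes, 56.6%. The lists overlapped in 19 genes and covered 26 together. Over all genes, the lists of 17949 and 17105 covered 18933 together. A2780CBN alone had CYP21A2 and CYP4A11, and A2780CBNDXL alone had CYP24A1, CYP26A1, CYP4V2, CYP4X1 and CYP7B1. CYP4V2 was also detected in A2780CBN by probes other than its brightest, whose spot on array 4 was marked as an outlier, which would make 22 genes there. A further 8 genes, CYP11A1, CYP17A1, CYP27A1, CYP2F1, CYP2J2, CYP3A7, CYP4F22 and CYP7A1, were above background on some arrays only.

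For 20 CYP genes, 37% of the family, no probe was above background in any channel of any of the 8 arrays. The same share over all genes is not given, so this share cannot be read as high or low. Among the 22 xenobiotic enzymes these included CYP3A4 and CYP3A5, which oxidize drugs in liver, and CYP2A6, which oxidizes nicotine, and 11 of the 22 were detected in each line. The fatty acid hydroxylases of family 4 numbered 11, of which 3 were detected in A2780CBN and 4 in A2780CBNDXL, and CYP4B1, CYP4F3, CYP4F11, CYP4F12 and CYP4Z1 were never above background. Of 6 genes of steroid hormone synthesis, 2 were detected in A2780CBN and 1 in A2780CBNDXL, and CYP19A1, the aromatase that makes estrogens, and CYP11B2, the aldosterone synthase, were never above background. Of 7 genes of cholesterol and bile acid metabolism, 1 and 2 were detected, and CYP8B1, CYP39A1 and CYP46A1 never rose above background. The 5 genes of vitamin D and retinoic acid metabolism were all detected in A2780CBNDXL, and 3 of them in A2780CBN. CYP2B7P1 and CYP4Z2P, which are named as pseudogenes, were never above background either. CYP20A1, an enzyme with no settled substrate, was detected in both lines.

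**Figure D1:**
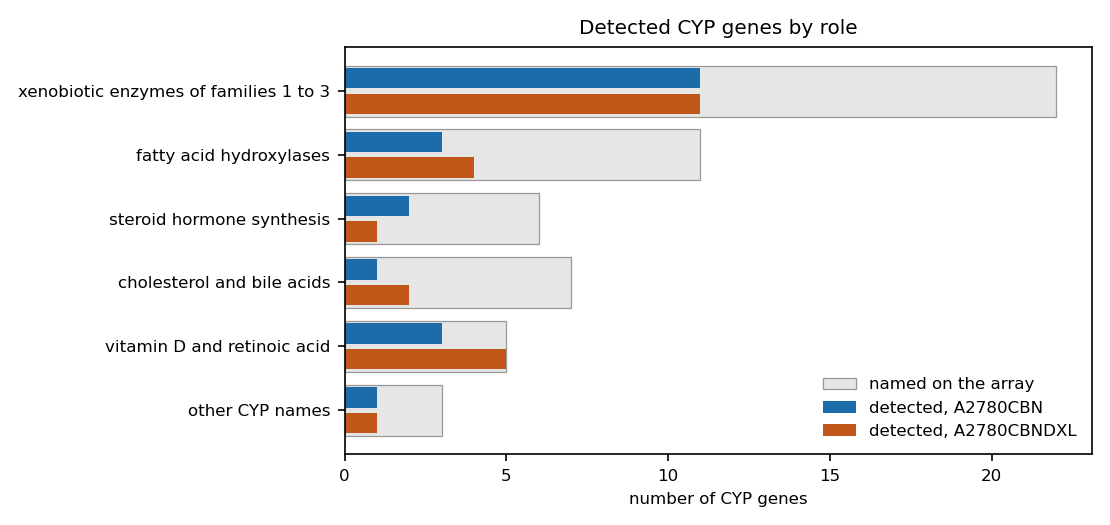
Number of CYP genes named on the array (grey) and detected in A2780CBN and A2780CBNDXL (colours), by role. Of the 22 xenobiotic enzymes 11 were detected in each line, and of the 5 genes of vitamin D and retinoic acid metabolism 3 in A2780CBN and 5 in A2780CBNDXL.

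A gene was called changed when the mean log2 ratio of resistant line to control was at least 1 in size, that is 2-fold, with the same sign on all 4 arrays, and the gene was detected. In A2780CBN 2 of the 21 detected CYP genes changed, against 12.6% of all detected genes. Both fell, CYP27B1 and CYP2E1, where 4.55% of all detected genes fell, and 0 rose, where the share over all detected genes was 8.0%. In A2780CBNDXL 3 of 24 changed, against 16.9% of all detected genes. All 3 rose, CYP1B1, CYP4X1 and CYP7B1, beside 7.70% of all detected genes, and 0 fell, beside 9.18%. These counts lay near the shares over all genes.

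Without the 2-fold limit, 11 of the 21 CYP genes detected in A2780CBN had the same sign on all 4 arrays, 4 above 0 and 7 below, against 60.8% of all detected genes. The same held for 16 of the 24 detected in A2780CBNDXL, 10 above 0 and 6 below, against 69.5% of all detected genes. The median log2 ratio of the detected CYP genes in A2780CBN was -0.19, with a range of -1.22 to 0.86, beside -0.06 for all detected genes. With the normexp background correction, run here with a constant added to every signal, it was -0.02, and it was -0.04 with background-subtracted signals and 0.12 with the A2780CC channel of the A2780CBNDXL arrays. In A2780CBNDXL the median was 0.18, also with CYP7B1 set at its bound, with a range of -0.84 to 3.40, beside 0.04 for all detected genes, and it was 0.04 with normexp, 0.12 with background-subtracted signals and 0.09 with the other line's control. The median size of the ratio was 0.33 for the family and for all genes in A2780CBN, and 0.55 against 0.39 in A2780CBNDXL.

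**Figure D2:**
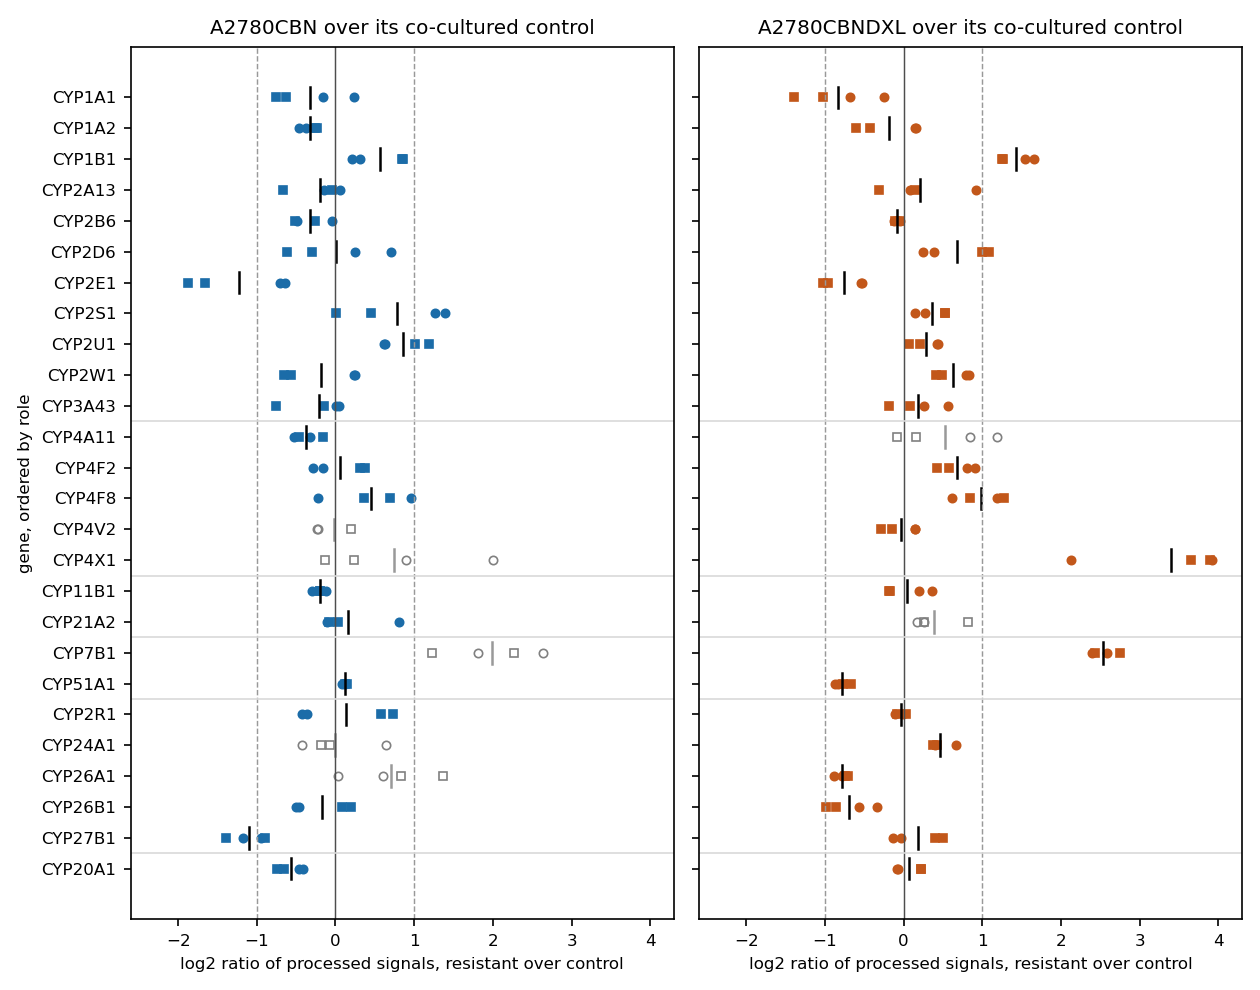
Log2 ratio of resistant line to control for the 26 CYP genes detected in at least 1 line, ordered by role, with a point for each array (circles forward, squares reverse labelling) and a bar at the mean. Open grey points are genes not detected in that line, dashed lines mark a 2-fold ratio, and the mean of 3.40 for CYP4X1 in A2780CBNDXL rests on a control channel above background on 1 of 4 arrays.

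Promoter sequences, 250 bases before to 50 bases after the transcript start on build GRCh38.p14, came from RefSeq, and 37 of the 54 CYP genes had 1. There was none for CYP1B1 or CYP27B1. They are shown for CYP2E1, which fell in A2780CBN, for CYP4X1, which rose in A2780CBNDXL, and for CYP51A1, whose ratio stood on different sides of 0 in the 2 lines with each line's own control only. The motifs searched on both strands were the core that the AHR and ARNT pair binds, GCGTG, the sterol regulatory element TCACNCCAC and the TATA box core TATAAA, of which the second contains the first on its other strand where N is G. Of 27305 promoters of this length, 36.3% held the first, 1.15% the second and 12% the third. Among the 37 CYP promoters the counts were 10, 0 and 13. The sequences read 5′ to 3′ on the gene's strand, with motif letters in capitals. CYP2E1 is at chr10:133527113-133527412 on the plus strand and holds TATAAA from base -30, CYP4X1 at chr1:46961114-46961413 on the plus strand holds none of the 3 motifs, and CYP51A1 at chr7:92134428-92134727 on the minus strand holds GCGTG from bases -80 and -30. Their GC content was 54.3%, 54.3% and 63.7%, and the median of all promoters was 58.3%. A match says only that the letters occur there.
CYP2E1: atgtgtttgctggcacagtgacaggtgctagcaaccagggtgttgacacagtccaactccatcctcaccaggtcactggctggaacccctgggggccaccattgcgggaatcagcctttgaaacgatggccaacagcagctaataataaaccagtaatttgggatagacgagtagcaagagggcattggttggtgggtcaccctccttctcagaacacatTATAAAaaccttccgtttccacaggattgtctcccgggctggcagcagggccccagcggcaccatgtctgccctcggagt
CYP4X1: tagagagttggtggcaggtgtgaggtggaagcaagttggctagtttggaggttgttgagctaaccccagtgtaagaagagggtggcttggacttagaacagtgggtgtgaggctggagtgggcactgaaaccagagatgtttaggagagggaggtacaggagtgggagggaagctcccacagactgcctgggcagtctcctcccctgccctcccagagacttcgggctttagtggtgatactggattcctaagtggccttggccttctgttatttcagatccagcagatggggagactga
CYP51A1: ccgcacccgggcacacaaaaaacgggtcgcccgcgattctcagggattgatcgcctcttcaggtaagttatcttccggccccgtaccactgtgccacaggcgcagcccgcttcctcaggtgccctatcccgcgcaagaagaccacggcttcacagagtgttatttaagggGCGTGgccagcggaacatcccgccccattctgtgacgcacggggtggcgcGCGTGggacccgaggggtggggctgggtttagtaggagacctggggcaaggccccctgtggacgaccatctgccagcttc

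CYP1B1, which hydroxylates estradiol and many foreign compounds and is found in many tumours, rose in A2780CBNDXL. The processed intensity of the resistant line there was 12851, 27199, 22564 and 27178 on arrays 1 to 4, and that of the control was 4063.5, 11369, 7754 and 11446. The resistant line was above the control on each array, with log2 ratios of 1.66, 1.26, 1.54 and 1.25. Their mean was 1.43 ± 0.21 (SD over arrays), a 2.69-fold difference, with 1.46 on slide 1 and 1.39 on slide 2. In A2780CBN the resistant line had 13782, 17870, 11521 and 15116, and the control 11150.5, 9914, 9929 and 8342. These log2 ratios of 0.31, 0.85, 0.21 and 0.86 were also all above 0, but their mean of 0.56 ± 0.34 was under the limit. Every array of A2780CBNDXL lay above every array of A2780CBN, and the difference between the means, 0.87, was under 2-fold. Between the lines, after scaling between arrays, the resistant channel of A2780CBNDXL differed from that of A2780CBN by 0.41 and the control channel by -0.46, and pairs of arrays matched by slide and dye ran on both sides of 0 for each. Taken to the A2780CC channel of the other line, CYP1B1 had a ratio of 0.96 in A2780CBNDXL, under the limit, and of 1.02 in A2780CBN, past it.

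CYP2E1, which oxidizes ethanol and small solvents, fell in A2780CBN. The intensity of the resistant line was 168, 90.3, 126 and 66.6 on arrays 1 to 4, and that of the control 274, 286, 196 and 244. All 4 arrays had the resistant line below the control, with log2 ratios of -0.70 and -0.64 on the forward arrays and -1.66 and -1.87 on the reverse arrays, so the size of the ratio went with the labelling. Forward arrays averaged -0.67 and reverse arrays -1.77, and the mean was -1.22 ± 0.64, with -1.18 on slide 1 and -1.26 on slide 2. On a second CYP2E1 probe the resistant channel was not above background on any array, and CYP2E1 was at least 2.02-fold lower by it. In A2780CBNDXL the first probe gave -0.54, -0.96, -0.53 and -1.02, again all below 0, with a mean of -0.76 ± 0.27, and the second probe, whose resistant channel was above background on 2 arrays, a mean of -0.32. With normexp the ratio of CYP2E1 in A2780CBN was -0.39 and no longer passed the limit. The difference between the lines, 0.46, was under 2-fold.

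CYP3A4 and CYP3A5, the main CYP3A enzymes of adult liver and gut, were not above background in either channel of any of the 8 arrays. The intensity of the CYP3A4 probe ran from 5.1 to 7.6 and that of the CYP3A5 probe from 4.0 to 9.2 over all channels and arrays. No ratio can be given for either gene, and a level below this background cannot be told from absence.

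Among the other detected xenobiotic enzymes, leaving out CYP1B1 and CYP2E1, mean ratios lay between -0.33 and 0.86 in A2780CBN. The range in A2780CBNDXL was -0.84 to 0.68. CYP2U1, which hydroxylates long-chain fatty acids, had 0.86 ± 0.28 in A2780CBN, and its second detected probe there 0.85. In A2780CBNDXL CYP2U1 had 0.29 ± 0.18. CYP2D6, which oxidizes many basic drugs, had 0.01 and 0.23 by its probes in A2780CBN, but 0.68 and -0.05 in A2780CBNDXL. CYP2B6, which oxidizes cyclophosphamide among other drugs, had -0.33 and -0.12 by its probes in A2780CBN and -0.08 in A2780CBNDXL. Chosen after their values were seen, CYP1A1 had -0.84 ± 0.49 in A2780CBNDXL and -0.33 in A2780CBN, CYP2S1 had 0.36 and 0.78 ± 0.66, and CYP2W1 had 0.63 and -0.19, none past the limit.

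**Figure D3:**
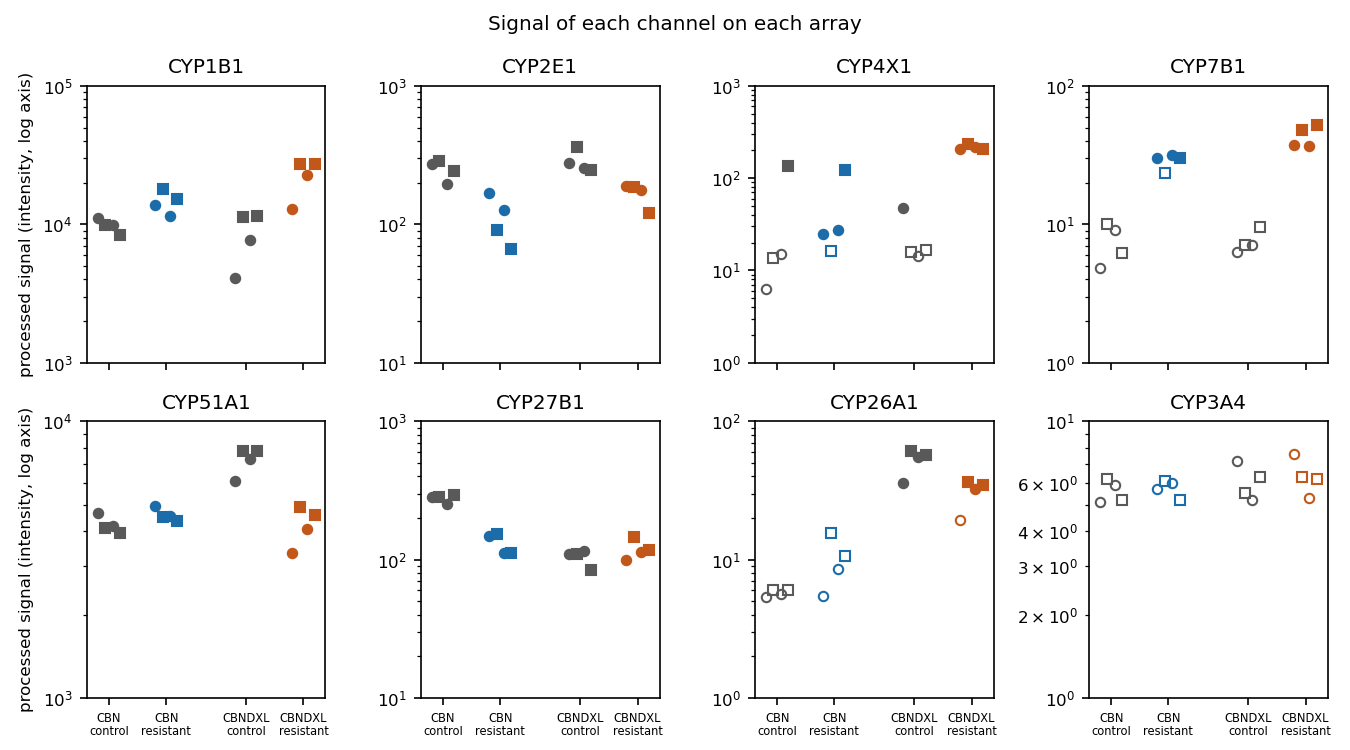
Processed intensity (log axis) of 8 CYP genes in the control (grey) and resistant (coloured) channel of each array, circles for forward and squares for reverse labelling, filled where well above background and open where not. CYP4X1 stood between 208 and 234 in all 4 resistant channels of A2780CBNDXL, while CYP3A4 was open in every channel.

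In the fatty acid family, CYP4X1 rose in A2780CBNDXL, and its substrates are thought to include the endocannabinoid anandamide. The resistant line had an intensity of 208, 234, 218 and 208 on arrays 1 to 4, and the control 47.6, 15.8, 14.4 and 16.6. The resistant channel was well above background on all 4 arrays and the control channel on array 1 only. The log2 ratios were 2.13, 3.89, 3.92 and 3.65, the lowest being that of array 1, with a mean of 3.40 ± 0.85 and slide means of 3.01 and 3.78. A second CYP4X1 probe had 135, 159, 161 and 134 in the resistant channel and a control channel that was not above background on any array, so CYP4X1 was at least 6.99-fold higher by it. In A2780CBN the first probe had 25.0, 16.1, 27.5 and 123 in the resistant channel, above background on 3 arrays, and 6.2, 13.7, 14.9 and 135 in the control channel, above background on 1. Array 4 was thus high in both channels of that line, and the second probe was not above background on any of its arrays. With normexp the ratio of CYP4X1 in A2780CBNDXL was 0.79, under the limit.

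CYP4F2, which inactivates leukotriene B4 and vitamin K, had a ratio of 0.68 ± 0.22 in A2780CBNDXL and 0.06 ± 0.33 in A2780CBN, and a second probe 0.67 and -0.08. CYP4V2, a fatty acid hydroxylase of the retina among other tissues, differed between its probes. In A2780CBN its brightest probe, which could not be traced to a RefSeq gene through its transcript record, had -0.24, 0.20 and -0.22 on arrays 1 to 3. The other CYP4V2 probes were traced to that gene, and among them the means were 0.83 and 1.08 there. On the fourth probe, whose control channel was not above background, the resistant line was at least 2.68-fold higher. CYP4V2 was not counted as changed there, since its brightest probe stood for the gene. In A2780CBNDXL the detected CYP4V2 probes had -0.04, 0.33 and 0.38. Chosen after their values were seen, CYP4F8 had 0.98 ± 0.31 in A2780CBNDXL, on a control channel above background on 2 of 4 arrays, and 0.01 with the other line's control. Chosen in the same way, CYP4F22, whose control channel was above background on 3 of 4 arrays and whose resistant channel on 0, was at least 1.53-fold lower there but not detected by the rule.

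Of the steroid hormone genes, CYP11B1, which makes cortisol, had a ratio of -0.20 ± 0.07 in A2780CBN and 0.04 ± 0.27 in A2780CBNDXL. CYP21A2, the steroid 21-hydroxylase, had 0.16 ± 0.43 in A2780CBN. CYP11A1, which cleaves the side chain of cholesterol, and CYP17A1, which makes androgen precursors, were above background on some arrays only.

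CYP7B1, an oxysterol hydroxylase of bile acid and steroid metabolism, rose in A2780CBNDXL. The resistant line had an intensity of 37.6, 47.7, 37.0 and 51.9 on arrays 1 to 4, well above background on each, and the control had 6.3, 7.1, 7.1 and 9.6, above it on none. CYP7B1 was therefore at least 2.04-fold higher. In A2780CBN the resistant line had 30.1, 23.5, 31.9 and 30.2, above background on 3 of 4 arrays and so not detected by the rule, and the control was above background on 0 of 4. The bound there was at least 1.34-fold higher. The means of the lines did not differ by the 2-fold rule, and no exact difference can be given, since the control was not above background in either line. With normexp the ratio in A2780CBNDXL was 0.18, under the limit, and with background-subtracted signals CYP7B1 was not called either.

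CYP51A1, the lanosterol demethylase and the CYP enzyme of cholesterol synthesis, was far above background in every channel. The resistant line had 4952, 4500.0, 4552 and 4353 on arrays 1 to 4 of A2780CBN, and the control 4670.5, 4132, 4188 and 3948. The ratios of 0.08, 0.12, 0.12 and 0.14 were above 0 on each array, with a mean of 0.12 ± 0.02. In A2780CBNDXL the resistant line had 3329, 4904, 4065 and 4595 and the control 6102, 7830.1, 7285 and 7842. There the ratios were below 0 on each array, at -0.87, -0.67, -0.84 and -0.77, with a mean of -0.79 ± 0.09 and slide means of -0.77 and -0.81. A second CYP51A1 probe gave 0.20 ± 0.03 in A2780CBN and -0.76 ± 0.23 in A2780CBNDXL. Neither mean passed the 2-fold limit, and the difference between the lines, -0.91, was under it too. Between the lines, the control channel of the A2780CBNDXL arrays was higher by 0.60 and the resistant channel differed by -0.31, both after scaling between arrays. Taken to the A2780CC channel of the other line, the ratio of CYP51A1 was -0.48 in A2780CBN and -0.19 in A2780CBNDXL, below 0 in both lines.

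The other enzymes of sterol synthesis around CYP51A1 were listed as 18 genes, of which 16 were detected in each line. In A2780CBN 6 of the 16 rose and 0 fell, beside 8.0% and 4.55% of all detected genes, and all 16 were above 0 on all 4 arrays, as were 4979 of the 17949 detected genes. Their median log2 ratio was 0.86, beside -0.06 for all detected genes. In A2780CBNDXL 1 rose and 2 fell, beside 7.70% and 9.18%, with 10 genes below 0 and 2 above 0 on all 4 arrays. Of the 17105 genes detected there, 5649 and 6232 were so. Their median there was -0.38, beside 0.04 for all detected genes, but it turned to 0.19 with the A2780CC channel of the A2780CBN arrays, and in A2780CBN the same exchange gave 0.43. HMGCS1, which makes the precursor of mevalonate, had 1.47, 1.79, 1.40 and 1.92 on the arrays of A2780CBN and -0.89, -1.24, -0.86 and -1.25 on those of A2780CBNDXL. Its means were 1.65 ± 0.25 and -1.06 ± 0.21, so HMGCS1 rose in the first line and fell in the second. HSD17B7, a sterol ketone reductase, did the same, at 1.44 ± 0.34 and -1.28 ± 0.12. SC4MOL, a methyl oxidase downstream of CYP51A1, had 2.14 ± 0.23 and -0.81 ± 0.21.

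SC5DL, a sterol desaturase, was above 0 in both lines, at 1.98 ± 0.18 in A2780CBN and 0.63 ± 0.06 in A2780CBNDXL. FDFT1, the squalene synthase, had 1.19 and -0.29, and TM7SF2, a sterol reductase that acts after CYP51A1, had 1.17 and -0.33. In A2780CBNDXL a second TM7SF2 probe had 0.28, of the opposite sign. PMVK, a kinase of the mevalonate pathway, was the gene that rose in A2780CBNDXL, at 1.07 ± 0.30, or 0.86 with the other line's control. With normexp HSD17B7 had 0.95 in A2780CBN and -0.96 in A2780CBNDXL, both under the limit. Taken to the A2780CC channel of the other line, HMGCS1 had 0.43 in A2780CBN and 0.16 in A2780CBNDXL, and HSD17B7 had 0.10 and 0.05, so both genes lost their calls and the sign turned in A2780CBNDXL. In that comparison FDFT1 had 0.53 and 0.36, TM7SF2 0.31 and 0.54 and SC4MOL 1.11 and 0.22, all above 0 in both lines. Thus 4 of the 6 rises in A2780CBN fell under the limit.

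**Figure D4:**
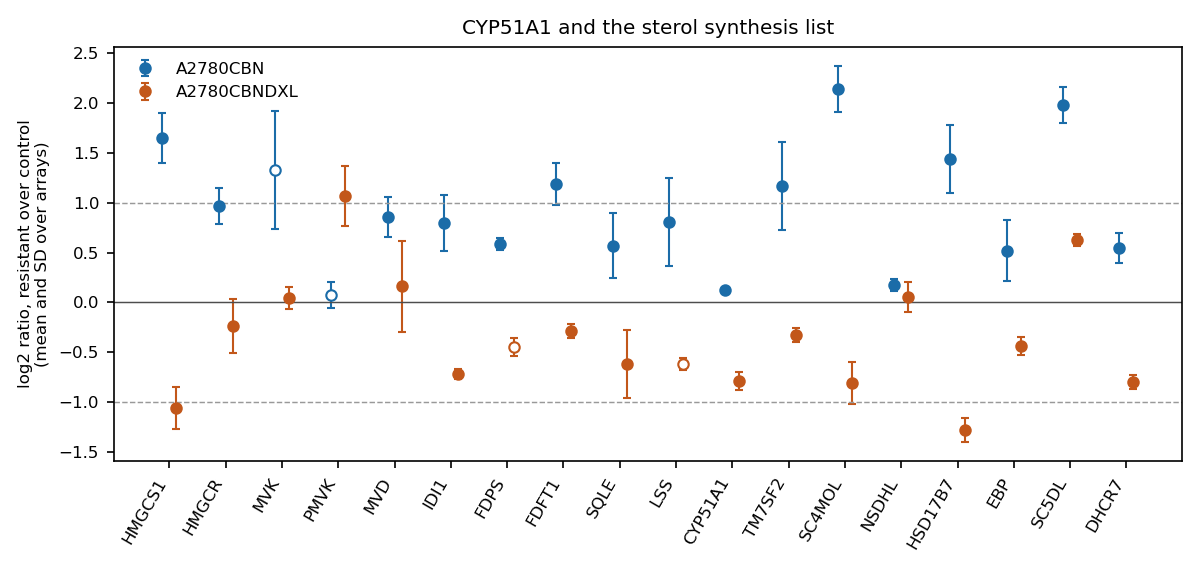
Mean log2 ratio of resistant line to control with its SD over arrays for CYP51A1 and 17 of the 18 other genes of sterol synthesis in A2780CBN and A2780CBNDXL, with open points for genes not detected by the rule. The list's detected genes had a median of 0.86 in A2780CBN and -0.38 in A2780CBNDXL, a sign that turned to 0.19 in A2780CBNDXL with the other line's control.

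CYP27B1, which makes the active hormone form of vitamin D, fell in A2780CBN. The resistant line had an intensity of 148, 153, 111 and 112 on arrays 1 to 4, and the control 285, 283, 252 and 295. Every resistant value lay below every control value, and the ratios were -0.95, -0.89, -1.18 and -1.39. The mean was -1.10 ± 0.23, with -0.92 on slide 1, which was under the limit, and -1.29 on slide 2. The call rested on array 4 as well, since the mean without it was -0.98. In A2780CBNDXL the resistant line had 99.5, 146, 113 and 118 and the control 109, 110.4, 116 and 83.6. Those ratios, -0.13, 0.40, -0.03 and 0.50, were below 0 on the forward and above 0 on the reverse arrays, with a mean of 0.18 ± 0.31.

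Between the lines, after scaling, CYP27B1 differed in the control channel by -1.47, lower in the A2780CBNDXL arrays, with matched pairs of arrays from -1.85 to -1.21. The resistant channels differed by -0.18. Against the control channel of the A2780CBNDXL arrays, CYP27B1 in A2780CBN had a ratio of 0.37, of the opposite sign. With normexp the ratio was -0.40 and with background-subtracted signals -0.94, both under the limit.

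CYP26A1, which clears retinoic acid, was detected in A2780CBNDXL only. There the control had 35.7, 61.2, 55.3 and 56.7 on arrays 1 to 4, and the resistant line 19.2, 36.7, 32.2 and 34.7, above background on 3 arrays. The ratios of -0.89, -0.74, -0.78 and -0.71 were all below 0, with a mean of -0.78 ± 0.08, under the limit. In A2780CBN neither channel of CYP26A1 was above background on any array, so no ratio can be given. The control channel was at least 2.15-fold higher on the A2780CBNDXL arrays than on the A2780CBN arrays, and the resistant channel at least 1.22-fold higher. CYP2R1, a vitamin D 25-hydroxylase, had 0.13 ± 0.61 in A2780CBN and -0.04 ± 0.07 in A2780CBNDXL. Chosen after their values were seen, CYP24A1, which inactivates vitamin D, had 0.46 ± 0.13 in A2780CBNDXL, and CYP26B1, also a retinoic acid hydroxylase, had -0.69 ± 0.29 there and -0.17 ± 0.36 in A2780CBN.

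CYP20A1 had a ratio of -0.57 ± 0.16 in A2780CBN, and its 4 probes there ran from -0.64 to -0.35. In A2780CBNDXL the probes split, with 0.07 and -0.01 for the brightest and 1 other, and 0.98 and 1.12 for the remaining pair. Over the family, 7 genes in A2780CBN had several probes with both channels above background on all 4 arrays, and in all 7 the probe means lay within 0.5 of each other on the log2 scale. CYP4V2 was counted there without its brightest probe, which had no value on array 4. In A2780CBNDXL this held for 3 of 5 genes, with larger gaps for CYP20A1 and CYP2D6. Such a comparison leaves out dim probes. CYP11B1, CYP24A1, CYP26B1, CYP2U1, CYP3A43, CYP4A11 and CYP4F2, all detected in at least 1 line, each had a probe not above background on any array.

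The ratios of the lines were compared by calling a gene different when their means differed by at least 1 on the log2 scale and the arrays did not overlap. By this rule 3 of the 26 CYP genes detected in at least 1 line differed, against 17.5% of all such genes. CYP27B1 was higher in A2780CBNDXL by 1.29. For CYP4X1 the difference was 2.65, on a control channel above background on 1 of 4 arrays in each line, and CYP4X1 was not detected in A2780CBN. CYP26A1 was counted as well, but no exact difference can be given. Its A2780CBN ratio is one between channels that were not above background. With normexp 0 CYP genes differed, and with background-subtracted signals 1, CYP27B1. The median difference was 0.40 for the CYP genes and 0.10 for all genes. In the control channel alone, 2 of the 26 CYP genes differed by the same rule, CYP27B1 and CYP26A1, against 4.36% of all such genes. A difference between the control cultures and a difference between the arrays cannot be told apart, since each control shared arrays only with its own line.

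Of the 18 sterol genes 15 differed between the lines by the rule, 14 with the lower ratio in A2780CBNDXL and 1 with the higher, and the median difference was -1.35. It was made up in both channels, with medians of -0.79 for the resistant and 0.54 for the control channel, in which 6 and 3 of the 18 genes differed, beside 15.5% and 4.36% of all such genes. HMGCS1 differed by -1.49 in the resistant and by 1.22 in the control channel.

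**Figure D5:**
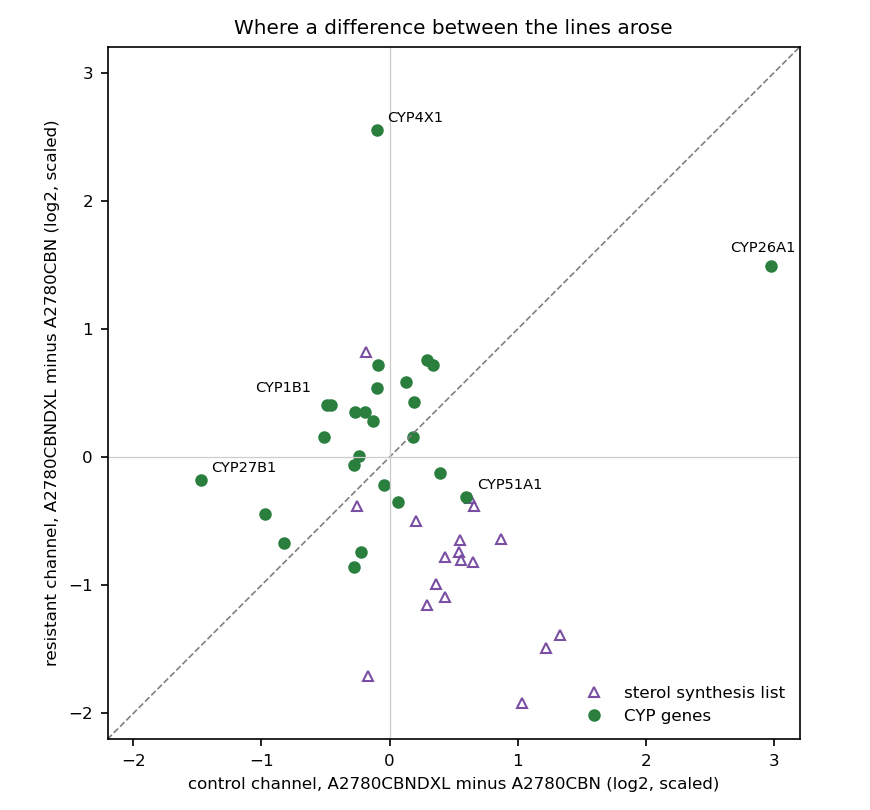
Difference between A2780CBNDXL and A2780CBN arrays in the control channel (horizontal) and in the resistant channel (vertical), log2 after scaling between arrays, for detected CYP genes (circles) and the sterol synthesis list (triangles). On the dashed line both channels differ alike, CYP27B1 lies at -1.47 in the control and -0.18 in the resistant channel, and CYP26A1 rests on A2780CBN channels that were not above background.

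Genes that serve CYP enzymes were read from lists in the same way, beside the shares over all detected genes of 8.0% that rose and 4.55% that fell in A2780CBN and of 7.70% and 9.18% in A2780CBNDXL. Of 12 electron donors, all detected in A2780CBN and 10 in A2780CBNDXL, 1 rose and 2 fell in the first line and 2 rose and 0 fell in the second. Their medians were 0.02 and 0.14, and that of A2780CBN turned to -0.04 with background-subtracted signals and to -0.20 with the other line's control. POR, the reductase for most of the family, had 0.02 ± 0.43 in A2780CBN and 0.17 ± 0.31 in A2780CBNDXL. CYB5R2, a cytochrome b5 reductase, had an intensity of 765, 559.8, 895 and 638 in the resistant line and 7915, 5432, 8661 and 5564 in the control of A2780CBN. In A2780CBNDXL it had 35551, 56643, 51303 and 55977 in the resistant line and 8622, 15867, 14726 and 17306 in the control. Resistant values were thus far below the control in the first line and above it in the second, with ratios of -3.26 ± 0.10 and 1.84 ± 0.15. CYB5A, cytochrome b5 itself, had -1.21 ± 0.42 and 1.42 ± 0.17, of which the first was -0.52 with normexp. FDXR, which feeds the mitochondrial CYP enzymes, had 1.83 ± 0.30 and 0.88 ± 0.16.

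Heme, the cofactor of every CYP enzyme, was covered by 13 genes of its synthesis and breakdown. Of 11 detected in A2780CBN 0 rose and 0 fell, and of 12 detected in A2780CBNDXL 1 rose and 2 fell, with medians of 0.16 and 0.30. The median of A2780CBN was 0.04 with the other line's control. HMOX1, which opens the heme ring, had 0.44, 1.32, 0.48 and 1.29 on the arrays of A2780CBN and -3.04, -3.33, -2.90 and -3.27 on those of A2780CBNDXL. It was above 0 on every array of the first line, with a mean of 0.88 under the limit, and fell in the second, with a mean of -3.13 ± 0.20. BLVRA, which reduces the biliverdin that HMOX1 forms, rose in A2780CBNDXL at 1.60 ± 0.08 and had 0.33 in A2780CBN. CPOX, an enzyme of heme synthesis, had -1.02 ± 0.16 in A2780CBNDXL, which was -0.88 with normexp and -0.99 on slide 2 alone, both under the limit, and -0.06 in A2780CBN.

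Of 20 receptors and partners that control CYP genes, 11 were detected in A2780CBN, of which 2 rose and 0 fell, and 10 in A2780CBNDXL, of which 0 rose and 2 fell. Their medians were -0.07 and 0.39, and that of A2780CBN was 0.19 with the other line's control. AHR, the receptor that induces CYP1 genes, its repressor AHRR, the CYP3A4 inducer NR1I2 and the bile acid receptor NR1H4 were not above background on any array. ARNT2, a partner of AHR-type proteins, had 1102, 1225, 1256 and 1480 in the resistant line of A2780CBN and 21.9, 32.9, 49.8 and 50.3 in the control, which was above background on 3 arrays. It rose there with a ratio of 5.10 ± 0.43, which was 2.04 with normexp, and was not detected in A2780CBNDXL. NR5A2, a regulator of bile acid and steroid enzymes, had 1.15 ± 0.32 in A2780CBN, 2.55 by a second probe and 0.15 with normexp. VDR, the vitamin D receptor that induces CYP24A1, had -0.82 ± 0.19 in A2780CBN and fell in A2780CBNDXL at -3.04 ± 0.36, or -1.40 with normexp. TIPARP, a target and brake of AHR, fell there at -2.78 ± 0.19 and had -0.62 in A2780CBN.

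Conjugation and hydrolysis after CYP oxidation was listed as 24 genes, 22 of them on the array and 11 detected in each line. In A2780CBN 1 rose and 0 fell, and in A2780CBNDXL 1 rose and 1 fell, with medians of -0.38 and -0.19. The median of A2780CBN was -0.07 with normexp and -0.03 with the other line's control. EPHX2, which hydrolyses the epoxides that CYP enzymes make of fatty acids, had -0.38 ± 0.09 in A2780CBN and 2.19 ± 0.04 in A2780CBNDXL, or -1.52 and 3.33 with the other line's control. SULT2B1, a sterol sulfotransferase, had 1.13 ± 0.04 and -0.59 ± 0.16, of which the first was 0.19 with normexp. With the other line's control its ratios were -0.03 and 0.57, each of the opposite sign. SULT2A1, a steroid sulfotransferase, was at least 6.33-fold lower in A2780CBNDXL, where its resistant channel was not above background, and had -0.66 in A2780CBN, and with normexp its ratio in A2780CBNDXL was -0.56.

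TBXAS1 and PTGIS, the thromboxane and prostacyclin synthases, share the CYP fold but not the name. TBXAS1 had 1.59 ± 0.24 in A2780CBN, 0.62 with normexp and 0.84 as a mean over its probes, and -0.58 ± 0.04 in A2780CBNDXL. PTGIS was at least 2.37-fold higher in A2780CBN, on a control channel that was not above background, had 0.16 with normexp, and was not detected in A2780CBNDXL. Between the lines, 3 of 12 electron donors, 2 of 12 heme genes, 4 of 12 receptors, 3 of 11 conjugation genes and both relatives differed by the rule above, beside the 17.5% of all genes. The differences of ARNT2, SULT2A1 and PTGIS rest on a resistant channel of A2780CBNDXL that was above background on 0 of 4 arrays, and that of PTGIS also on such a control channel in A2780CBN.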

How the data were processed

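RNA of A2780CBN and A2780CBNDXL and of their co-cultured controls was measured on 8 Agilent arrays with probe coordinates on NCBI36. The authors deposited the output of Feature Extraction (10.7.1.1 on slide 1, 10.7.3.1 on slide 2), and the processed intensity in these files is background-subtracted and dye-normalized. Dye labels of the reverse arrays conflict with their name, and these arrays were turned as the name says. Log2 ratios of forward and reverse arrays then correlated at 0.58 to 0.61 in A2780CBN and 0.73 to 0.74 in A2780CBNDXL, across all gene probes, dim ones included. Arrays of the same labelling correlated at 0.85 and 0.87 in A2780CBN and at 0.87 and 0.9 in A2780CBNDXL. Spots marked as outliers, 165 to 1006 an array, were dropped. Forward and reverse means were averaged, and the brightest probe stood for a gene. Channels were compared between lines after quantile scaling (Aquantile). With 1 sample a line no test between cultures could be made, the ANOVA covers array error only, and the number of arrays limits the precision.

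Named were CYP1B1, CYP3A4 and CYP3A5, CYP genes that changed, differed between the lines or had several detected probes, and listed genes that changed. Further genes, among them CYP11B1, CYP21A2, CYP2R1 and POR, were named outside this rule. The members and lists were chosen with earlier results of these data known. Alternatives were normexp with an offset of 50 and loess, background-subtracted signals, left-out arrays, single slides, other probes, filters, limits of 1.5-fold and 3-fold, the other line's control and an ANOVA over arrays. Those on outlier spots, on any probe and on listed genes were chosen after seeing the data. R 4.3.3, limma 3.58.1, data.table (1.17.8), Python 3.11.15, pandas 2.3.3, numpy 2.4.6, scipy 1.17.1 and matplotlib 3.10.9 were used. The rules for changed and different genes and the ANOVA were tested on simulated log2 ratios, with every gene taken as detected. Normalization, detection, the choice of probe and the bounds were not tested in this way.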

Additional observations from a re-analysis of the deposited data

Results flagged for a closer look

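For 12 genes detected in both lines, the listed ones among them changed in at least 1, every array of 1 line had a ratio above 0 and every array of the other line a ratio below 0. The same count over all detected genes is not given, and listed genes that changed in neither line were left out, so 12 cannot be read as many or few. None of these differences was tested, since each line is 1 pooled sample. Given as the mean log2 ratio of A2780CBNDXL minus that of A2780CBN, the difference was -0.91 for CYP51A1. It was the only CYP gene among the 12, of the 19 CYP genes detected in both lines. Of the other sterol synthesis genes, SC4MOL had -2.95, HSD17B7 -2.72, HMGCS1 -2.71, TM7SF2 -1.51 and FDFT1 -1.48. A second probe of TM7SF2 had 0.28 in A2780CBNDXL and so was above 0 in both lines. Among electron donors CYB5R2 had 5.11 and CYB5A 2.63. HMOX1, which breaks down heme, had -4.02. EPHX2 had 2.57 and SULT2B1 -1.71 among the genes of conjugation and hydrolysis, and TBXAS1 had -2.17. With the other line's control both ratios lay on the same side of 0 for CYP51A1 (-0.48 in A2780CBN and -0.19 in A2780CBNDXL), SC4MOL (1.11 and 0.22), HSD17B7 (0.10 and 0.05), HMGCS1 (0.43 and 0.16), TM7SF2 (0.31 and 0.54) and FDFT1 (0.53 and 0.36). For SULT2B1 the signs were exchanged (-0.03 and 0.57). The means kept their signs for CYB5R2 (-4.10 and 2.68), CYB5A (-2.46 and 2.66), HMOX1 (0.40 and -2.66), EPHX2 (-1.52 and 3.33) and TBXAS1 (1.53 and -0.53).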

How the results depend on the processing

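The counts of changed CYP genes were 2 in A2780CBN and 3 in A2780CBNDXL, and 3 differed between the lines, CYP26A1 only by A2780CBN channels not above background. With normexp and loess they were 0, 1 (CYP1B1) and 0. Background-subtracted signals gave 1 (CYP2E1), 2 (CYP1B1 and CYP4X1) and 1 (CYP27B1), and CYP7B1 had no ratio on array 1 of A2780CBNDXL. Leaving out each array in turn gave 1 to 3 in A2780CBN, 3 to 4 in A2780CBNDXL and 3 to 4 between the lines, the 1 being without array 4. Slide 1 alone gave 1 in A2780CBN. Counting probes gave 5 in each line. Without a filter on dim probes there were 4 in each line and 5 between them, and with both channels above background 1 in A2780CBNDXL. A 1.5-fold limit gave 4, 12 and 9, and a 3-fold limit 0, 2 (CYP4X1 and CYP7B1) and 1, CYP7B1 only by its ratio to a control not above background, since its bound was 2.04-fold. Shares over all genes are given for the 2-fold limit only, so these counts cannot be set against them. Detection in any channel of any array raised the detected genes of A2780CBN from 21 to 32. The ANOVA on arrays was an ordinary least-squares fit with dye and slide terms, with array error only and 1 residual degree of freedom in each line. It gave 0 at an adjusted p in each line, against 2 in each at an unadjusted p with the 2-fold limit. Over all genes it gave 1 and 4 adjusted, and 1793 and 2412 unadjusted.

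With the other line's control 5 of 21 CYP genes changed in A2780CBN (CYP1B1, CYP26A1, CYP2E1, CYP2U1 and CYP4F8), beside 12.6% of 18430 genes. In A2780CBNDXL 4 of 24 changed (CYP1A2, CYP27B1, CYP4X1 and CYP7B1), beside 16.3% of 18346 genes. Detection was taken here from the 2 channels compared, so these sets differ from those above. The 21 include CYP26A1 and CYP4V2 but not CYP2A13 and CYP4A11, and the 24 include CYP4A11 but not CYP26A1. The resistant channel of CYP26A1 in A2780CBN and the control of CYP7B1 were not above background. Among called genes the sign turned for CYP27B1 (0.37) and SULT2B1 (-0.03) in A2780CBN and for HMGCS1 (0.16) and HSD17B7 (0.05) in A2780CBNDXL. Among CYP genes under the limit with their own control, it turned in A2780CBN for CYP51A1 (-0.48), CYP1A2 (0.49), CYP26B1 (0.05) and CYP11B1 (0.03). In A2780CBNDXL it turned for CYP27B1 (-1.29, past the limit there), CYP11B1 (-0.20), CYP20A1 (-0.03), CYP2B6 (0.11) and CYP4V2 (0.20). Listed genes that turned there from under the limit included SC4MOL (0.22), FDFT1 (0.36), TM7SF2 (0.54) and SULT2B1 (0.57). For CYP26A1 no such ratio can be given, since the A2780CBN control was not above background. The causes were not tested. Only some of the printed CYP ratios, 4 in A2780CBN and 7 in A2780CBNDXL, were set against their SD over arrays. Of these, normexp moved 2 and 4 by more than 1 SD and background-subtracted signals 1 and 0. The other line's control left 1 and 2 within 1 SD. Signal over background limits the genes near it, above all CYP7B1, CYP4X1 and CYP26A1.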
